A study of Sus scrofa with 24 samples.

Results

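The SLC1A genes encode the carriers of glutamate and of small neutral amino acids, and they were followed here in the livers of pigs injected with anabolic steroids. Members were the rows of the deposited tables whose symbol was SLC1A1, SLC1A2, SLC1A3, SLC1A4 or SLC1A5, and 4 of these 5 genes had a row among 13463. SLC1A3 was not analysed here. The family was chosen because SLC1A2 was higher with Sustanon than in controls and SLC1A4 was lower with Sustanon than with Myodin, so those differences are given as descriptions, without a test. All 4 members passed the filter on low counts, which left 8279 genes in the comparison of the treatments.

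RNAseq of polyA RNA was available from the liver of 24 pigs, with 1 library per pig. The pigs were growing hybrids of Large White, Landrace and Duroc. Sustanon, a mixture of testosterone esters, was injected into the muscle at 4 mg/kg body weight in 8 pigs (3 sows, 3 castrated boars and 2 uncastrated boars). Myodin, a nandrolone ester, was injected at 5 mg/kg body weight in 8 pigs (3 sows, 2 castrated boars and 3 uncastrated boars), and 8 control pigs (3 sows, 3 castrated boars and 2 uncastrated boars) were untreated. No group carried a genetic change. Injections were repeated up to shortly before slaughter, and uncastrated boars kept their testes. Each group was housed in its own pens, with the controls in a separate room, so treatment and housing cannot be told apart.

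The carriers of this family couple the uptake of an amino acid to the sodium gradient across the cell membrane. One branch, which includes SLC1A1 and SLC1A2, takes up glutamate and aspartate, whereas the other branch, SLC1A4 and SLC1A5, exchanges alanine, serine, cysteine and, in the case of SLC1A5, glutamine. In the liver, glutamine is broken down by the cells near the portal vein, and the narrow layer of cells around the central vein takes up glutamate, among other carriers by SLC1A2, and turns it with ammonia into glutamine. SLC1A2 is otherwise best known as the main glutamate carrier of brain astrocytes.

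The libraries held between 9267780 and 14017276 counts. The Y-linked genes KDM5D and EIF1AY went against the label in 3 control libraries. The libraries labelled control sow 16 and control sow 18 had 476 and 434 counts of EIF1AY, and the library labelled control castrated boar 15 had 1. In the other 21 libraries these counts followed the label. The 3 libraries were kept under their labels, and the differences from control, the comparison by testes among controls and the calls of single genes are also given without them. In a single edgeR fit of the 3 treatments, 420 genes (5.07%) had a Benjamini-Hochberg adjusted p under 0.05 in Sustanon against control, 0 in Myodin against control (597, or 7.21%, at an unadjusted p under 0.05, and 1 by DESeq2) and 55 (0.664%) in Sustanon against Myodin. Without the 3 control libraries, 0 genes passed in Sustanon against control, where 1199 had an unadjusted p under 0.05 and DESeq2 with all libraries called 637. The hepatocyte markers, among them albumin, summed to between 106700 and 223700 CPM, that is counts scaled to library size, whereas the astrocyte and neuron markers of the list summed to at most 2.87 CPM.

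The 4 members lie on different chromosomes of the Sscrofa11.1 assembly, and all are annotated as protein-coding genes. SLC1A1 (ENSSSCG00000005222) lies at chr1:217366493-217441643, SLC1A2 (ENSSSCG00000013296) at chr2:25603892-25771840, SLC1A4 (ENSSSCG00000028282) at chr3:76938102-76970519 and SLC1A5 (ENSSSCG00000003105) at chr6:52647432-52661464. Of the relatives outside the list, SLC1A6 had 0 counts in 23 libraries and 1 count in the remaining library, and SLC1A7 had at most 3 counts in a library. Compared per length, in TPM, the level scaled to transcript length and to the library, the control livers held SLC1A5 at 11.8 ± 2.78 (SD, n = 8), SLC1A1 at 9.99 ± 3.43, SLC1A4 at 8.02 ± 1.49 and SLC1A2 at 0.628 ± 0.303. In controls the TPM ranges of SLC1A5, SLC1A1 and SLC1A4 overlapped, and SLC1A2 lay below each of the other members.

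SLC1A2, a glutamate carrier, was the least abundant member and ranged from 0.970 to 21.4 CPM over the 24 pigs. The control pigs had 5.35, 2.24 and 1.49 CPM (sows 16, 17 and 18), 2.40, 1.93 and 3.06 CPM (castrated boars 13, 14 and 15) and 1.25 and 1.22 CPM (uncastrated boars 25 and 27). The Sustanon pigs had 2.60, 17.4 and 17.3 CPM (sows 4, 5 and 6), 11.8, 21.4 and 3.61 CPM (castrated boars 1, 2 and 3) and 14.3 and 5.91 CPM (uncastrated boars 19 and 20). Thus 6 of the 8 Sustanon pigs were above every control, while sow 4 and castrated boar 3 lay within the control range, and the highest control was a library whose label the Y-linked genes contradict. Over all genes, 0.362% had every Sustanon library above every control library, and SLC1A2 was not among them. As a description of the contrast that chose it, the fitted log2 fold change was 2.32 (SE 0.54), which is a level 4.98-fold that of controls, and it was 2.69 without the 3 control libraries. In a bulk library, fewer cells of a type and less RNA per cell cannot be told apart, and the same holds for a higher level.

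With Myodin, SLC1A2 had 4.72, 1.67 and 3.02 CPM in sows 10, 11 and 12, 0.970 and 4.67 CPM in castrated boars 8 and 9, and 2.69, 20.2 and 1.35 CPM in uncastrated boars 22, 23 and 24. Apart from uncastrated boar 23, which reached the level of the highest Sustanon pigs, the Myodin pigs were within or below the control range. The log2 fold change of Myodin against control was 1.05 (SE 0.54; edgeR adjusted p = 0.710). It was 0.21 without boar 23 and 1.42 without the 3 control libraries. Sustanon against Myodin, which shares its Sustanon libraries with the contrast that chose the gene and sets a dose of 4 mg/kg beside one of 5 mg/kg, gave 1.27 (SE 0.51; adjusted p = 0.189). Without boar 23 this difference was 2.10.

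SLC1A1, the carrier of glutamate, aspartate and cysteine found in many epithelia, ranged from 15.8 to 70.0 CPM. The lowest, median and highest pig had 15.8, 21.3 and 32.4 CPM among controls, 20.2, 45.0 and 58.4 CPM with Sustanon, and 17.4, 22.9 and 70.0 CPM with Myodin. Here too 6 of the 8 Sustanon pigs were above every control, and the remaining pigs, castrated boars 1 and 3, lay within the control range. The log2 fold change of Sustanon against control was 0.87 (SE 0.26, 95% interval 0.33 to 1.41) with an adjusted p of 0.0518, just above the threshold of 0.05. It was called by DESeq2 (adjusted p = 0.0186) and with sex class as a covariate (0.0275), whereas without the 3 control libraries it was 0.70 with an adjusted p of 0.308. Myodin against control gave 0.46 (adjusted p = 0.739), or 0.29 without the 3 control libraries and 0.19 without boar 23, which was the highest of all 24 pigs for SLC1A1.

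**Figure D1:**
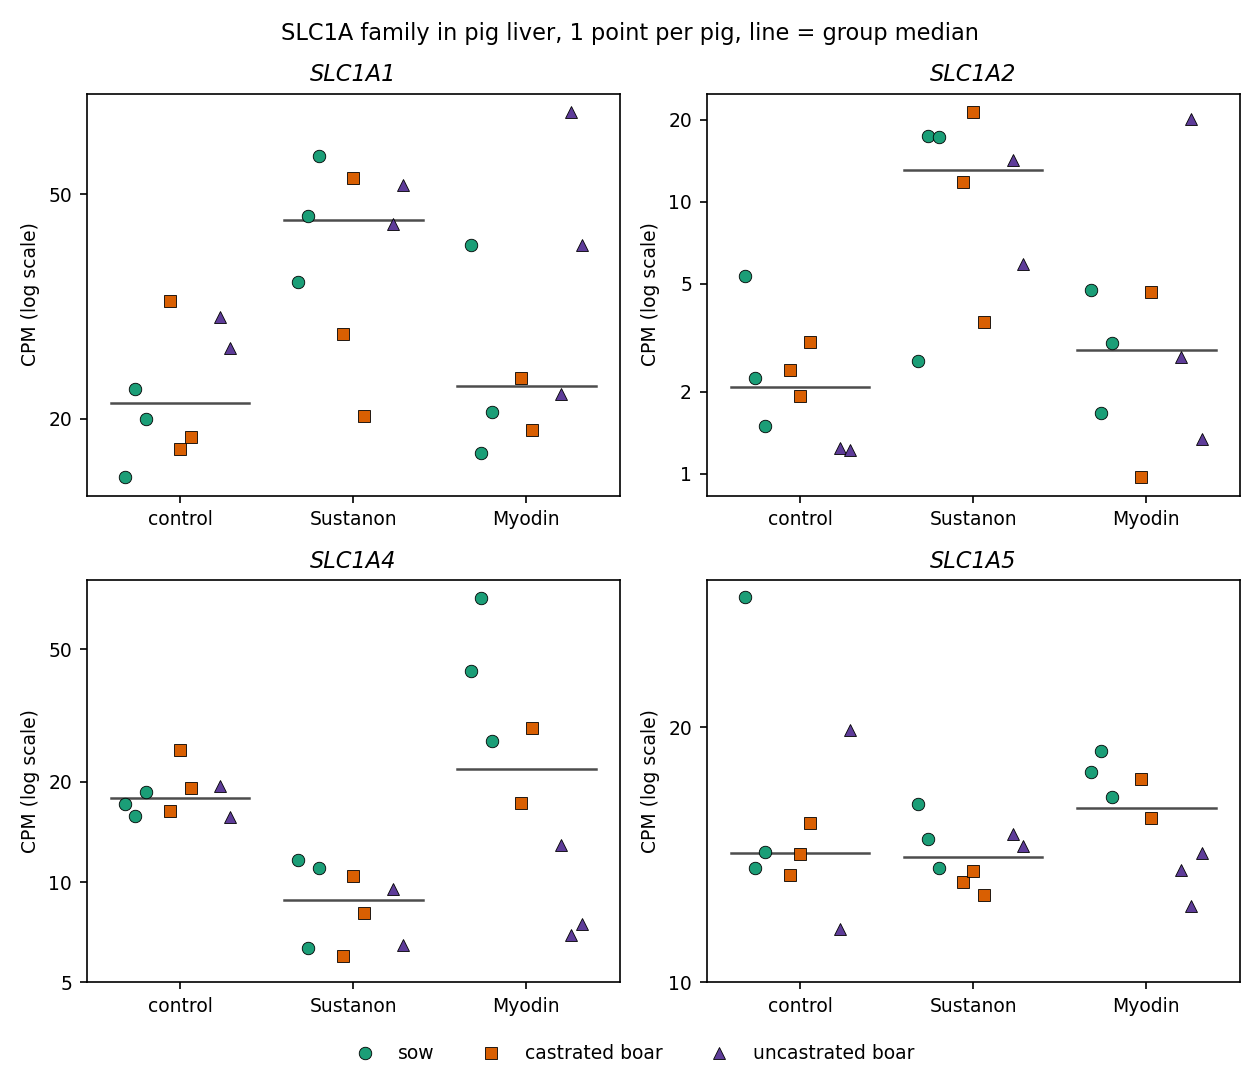
Level of each SLC1A member in each of the 24 pigs, in CPM on log axes that differ between the panels, by treatment (control, Sustanon, Myodin); colour and shape give the sex class and lines the median of each treatment. SLC1A4 in the Sustanon pigs lies below every control, the Myodin boars with testes lie apart from the other Myodin pigs for SLC1A4, and SLC1A5 stays between 11.6 and 28.5 CPM.

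SLC1A4, the exchanger of alanine, serine and cysteine, separated the Sustanon pigs from the controls. The control pigs had 17.2, 15.8 and 18.7 CPM (sows), 16.4, 25.0 and 19.2 CPM (castrated boars) and 19.5 and 15.7 CPM (uncastrated boars). The Sustanon pigs had 11.7, 6.35 and 11 CPM (sows), 6.02, 10.4 and 8.10 CPM (castrated boars) and 9.53 and 6.48 CPM (uncastrated boars). All 8 Sustanon pigs were below all 8 controls, a pattern found in 0.109% of the genes tested (9 of 8279). The same Sustanon libraries entered the contrast that chose SLC1A4, so this share is background and not a test. Leaving out the 3 control libraries takes away neither the lowest nor the highest control, and the log2 fold change stayed at -1.09 (against -1.08 with all 24 libraries).

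The test of this difference depended on the groups fitted. In the fit of 3 treatments, where the Myodin pigs added a wide spread, the log2 fold change of SLC1A4 in Sustanon against control was -1.08 (SE 0.34, 95% interval -1.79 to -0.38), with an adjusted p of 0.0642. By DESeq2 the adjusted p was 0.0227. Among sows and castrated boars alone, in the fit of 6 groups of treatment by testes, SLC1A4 fell by 1.07 on the log2 scale (SE 0.27; edgeR adjusted p = 0.0188) in a comparison where 2.06% of 8754 genes were called lower. The call was lost without control castrated boar 14 or Sustanon sow 5, with an adjusted p of at most 0.0533 over the fits that left out a single pig, and without the 3 control libraries (log2 fold change -1.10, adjusted p = 0.109). These tests share the Sustanon libraries with the contrast that brought SLC1A4 in, so they are not independent of that choice. Of SLC1A1, SLC1A4 and SLC1A5, 0 were called by edgeR over all 24 pigs, 2 had an unadjusted p under 0.05 (as had 19.6% of all genes) and 2 were called by DESeq2.

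With Myodin, the SLC1A4 levels of the pigs with testes lay below those of the pigs without. The share of genes with this split was not counted, so nothing is read from it. Sows 10, 11 and 12 had 42.9, 71.1 and 26.5 CPM and castrated boars 8 and 9 had 17.3 and 29.0 CPM, whereas uncastrated boars 22, 23 and 24 had 12.9, 6.96 and 7.50 CPM. Thus 4 of the 5 Myodin pigs without testes were above every control, and the 3 with testes were below every control, as for 1.11% of genes. Uncastrated boar 23 had the highest SLC1A1 and SLC1A2 and the lowest SLC1A4 of the Myodin pigs. These opposite positions gave a log2 fold change of only 0.54 (SE 0.33; adjusted p = 0.771) for Myodin against control over all pigs. Without sow 11, the pig with the most SLC1A4, it was 0.15, and among pigs without testes alone it was 0.64. Over all pigs it was 0.54 without the 3 control libraries.

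Split by testes, the log2 fold change of SLC1A4 for Myodin against control was 1.01 (SE 0.27; edgeR adjusted p = 0.150) in 5 against 6 pigs without testes, where 0.0914% of genes were called and DESeq2 called SLC1A4 (adjusted p = 0.0439). The value was 0.98 without the 3 control libraries (edgeR adjusted p = 0.780). In 3 against 2 uncastrated boars it was -0.92 (SE 0.41; edgeR adjusted p = 0.512), in a comparison where 0 genes were called and 9.1% had an unadjusted p under 0.05. The difference between these effects was -1.93 (SE 0.49, 95% interval -2.94 to -0.91), with an unadjusted p of 0.000694 and an adjusted p of 0.118, in a comparison where 8 genes (0.0914%) were called. DESeq2 called it (adjusted p = 0.0259), and without the 3 control libraries it was -1.90 with an adjusted p of 0.299. Leaving out single pigs moved it between -2.26 and -1.56, with adjusted p values from 0.0268 to 0.471. The direction was the same in these fits, and the edgeR test across all genes passed in 1 of 24, the fit without Myodin uncastrated boar 22. The Myodin libraries here also entered the contrast that chose SLC1A4.

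As a description of that contrast, SLC1A4 in Sustanon against Myodin had a log2 fold change of -1.62 (SE 0.34). The difference was made up by the pigs without testes, where all 6 Sustanon pigs were below all 5 Myodin pigs (1.69% of genes had this pattern, from which nothing is read since this contrast chose the gene) and the fitted value was -2.08. In uncastrated boars, with 6.48 and 9.53 CPM against 6.96, 7.50 and 12.9 CPM, the groups overlapped and the fitted value was -0.22. In order of mean level, SLC1A4 was 37.4 ± 21.0 CPM (SD, n = 5) with Myodin without testes, 18.7 ± 3.34 (n = 6) and 17.6 ± 2.70 (n = 2) in controls without and with testes, 9.12 ± 3.28 (n = 3) with Myodin with testes, and 8.93 ± 2.44 (n = 6) and 8.01 ± 2.15 (n = 2) with Sustanon without and with testes. The control groups overlapped each other, the lower 3 groups overlapped each other, and no pig of those 3 groups reached the lowest control.

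**Figure D2:**
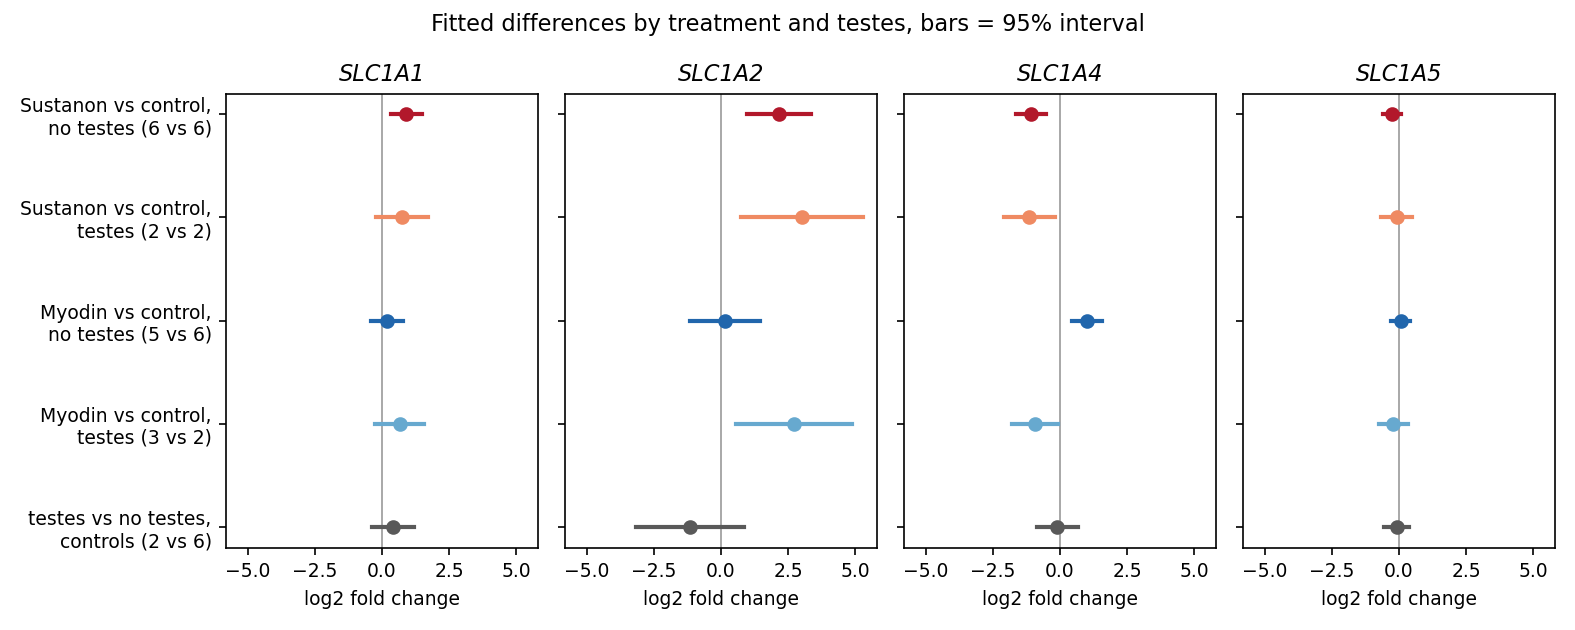
Fitted log2 fold changes of the 4 members (points) with 95% intervals (bars) in the fit of 6 groups of treatment by testes; each row is a comparison, with the numbers of pigs in brackets. SLC1A4 is lower with Sustanon in both rows (-1.07 and -1.14), while with Myodin it lies at 1.01 without testes and -0.92 with testes.

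SLC1A5, the glutamine exchanger, varied least. Its lowest, median and highest pig had 11.6, 14.2 and 28.5 CPM among controls, 12.7, 14.1 and 16.2 CPM with Sustanon and 12.3, 16.1 and 18.8 CPM with Myodin. Over all pigs the ranges of the treatments overlapped, whereas among pigs without testes 5 of the 6 Sustanon pigs were below all 5 Myodin pigs (fitted difference -0.31, adjusted p = 0.308). Among uncastrated boars, in contrast, both Sustanon pigs were above the 3 Myodin pigs, as for 11% of genes. The highest SLC1A5 value belonged to the library labelled control sow 16. Sustanon against control gave a log2 fold change of -0.20 (95% interval -0.50 to 0.09; adjusted p = 0.472) and Myodin against control -0.05 (95% interval -0.34 to 0.24; adjusted p = 0.988), so that a difference as large as that fitted for SLC1A4 with Sustanon lies outside the interval. These values were -0.038 and 0.12 without the 3 control libraries.

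The members together summed to 30.4 ± 3.28 TPM (SD, n = 8) in controls, 35.3 ± 6.56 with Sustanon and 36.9 ± 10.3 with Myodin. The totals of single pigs overlapped, from 25.3 to 34.8 TPM in controls, 24.7 to 42.2 with Sustanon and 26.6 to 54.3 with Myodin. The make-up of that total differed more. The glutamate carriers SLC1A1 and SLC1A2 held 34.5% ± 7.92 of the family's TPM in controls, with pigs between 23.4% and 46.5%, and 58.2% ± 9.41 with Sustanon, with pigs between 41.7% and 67%. With Myodin their share was 28.5% ± 8.23 in the 5 pigs without testes and 56.3% ± 17.4 in the 3 uncastrated boars. The ratio of SLC1A1 to SLC1A4, both in TPM, was 1.27 ± 0.451 in controls and 4.87 ± 1.82 with Sustanon, and the lowest Sustanon pig (2.35) was above the highest control (1.99). In Myodin pigs the ratio was 0.782 ± 0.388 without testes and 5.40 ± 3.99 with testes. Without the 3 control libraries the share of the glutamate carriers in controls was 38.1% ± 7.56 (SD, n = 5) and the ratio 1.45 ± 0.496. These shares combine values that chose the members, and they are given without a test.

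**Figure D3:**
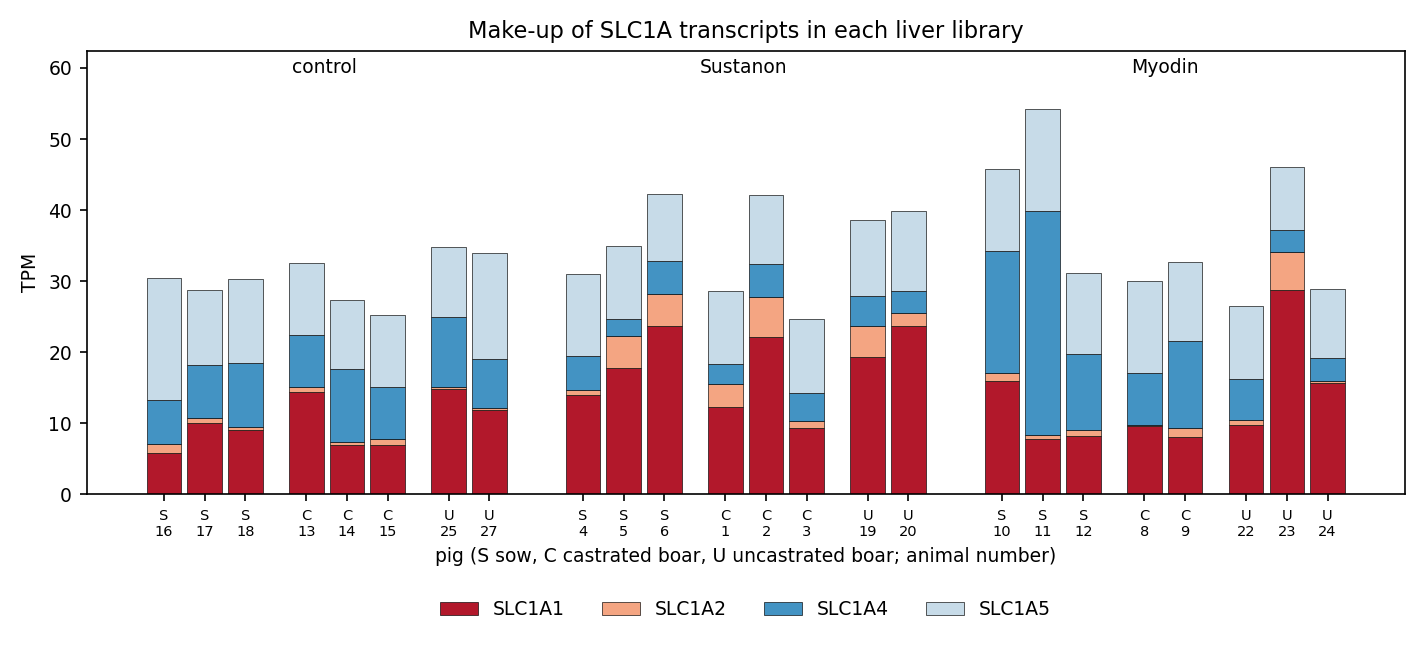
TPM of the SLC1A members stacked for each of the 24 pigs, grouped by treatment and, within it, by sex class (S sow, C castrated boar, U uncastrated boar, with the animal number). The red shades (SLC1A1 and SLC1A2) make up 34.5% of the stack on average in controls and 58.2% with Sustanon, and the darker blue (SLC1A4) is widest in Myodin sow 11.

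Sex class was compared within treatments, in a fit with treatment and sex class as additive terms. Uncastrated against castrated boars gave a log2 fold change of 0.64 (SE 0.25; edgeR adjusted p = 0.187) for SLC1A1, 0.32 for SLC1A2, -0.55 for SLC1A4 (adjusted p = 0.363) and -0.01 for SLC1A5. Of the 4 members 0 were called, 1 (SLC1A1) had an unadjusted p under 0.05, as had 17.9% of all genes, and 0 were called by DESeq2, against 160 of 8332 genes (1.92%) called by edgeR. Without the 3 control libraries the value of SLC1A1 was 0.63 (adjusted p = 0.212). The value of SLC1A1 was 0.44 and that of SLC1A2 was -0.52 without Myodin boar 23. Castrated boars against sows gave values between -0.42 (SLC1A4) and -0.09 (SLC1A2), with 0 members called and 0 at an unadjusted p under 0.05, in a comparison where edgeR called 0 genes (823, or 9.88%, at an unadjusted p under 0.05, and 22 by DESeq2).

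Among the controls alone, the 2 boars with testes had 1.25 and 1.22 CPM of SLC1A2, below each of the 6 controls without testes (1.49 to 5.35 CPM), but 9.52% of genes had this pattern. The fitted difference was -1.16 (95% interval -3.17 to 0.86; adjusted p = 0.623) for SLC1A2, 0.41 (adjusted p = 0.661) for SLC1A1 and -0.10 (adjusted p = 0.940) for SLC1A4, with 1.43% of genes called. Of the 6 controls without testes 3 are the libraries that go against their labels, and without them the differences were -0.84 (edgeR adjusted p = 0.802) for SLC1A2, 0.22 for SLC1A1 and -0.13 for SLC1A4. Thus the low SLC1A4 level of the Sustanon pigs and of the Myodin boars with testes was not seen in untreated boars with testes, which had 19.5 and 15.7 CPM. The Sustanon effect was not found to differ with testes, with differences of 0.86 (95% interval -1.66 to 3.38) for SLC1A2, -0.16 (-1.28 to 0.96) for SLC1A1 and -0.06 (-1.16 to 1.04) for SLC1A4 (0.55, 0.038 and -0.035 without the 3 control libraries), in a comparison where 0.0457% of genes were called. With 2 uncastrated boars a group, those intervals leave room for differences of over 1 on the log2 scale. Leaving out single pigs moved the value of SLC1A2 between 0.084 (without Sustanon uncastrated boar 19) and 1.355 (without Sustanon uncastrated boar 20). For Myodin, the difference was 2.57 for SLC1A2 (edgeR adjusted p = 0.403), 0.59 without boar 23 and 2.25 without the 3 control libraries.

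Across the 24 pigs, the log2 CPM of SLC1A1 and SLC1A2 had a Pearson r of 0.63 (0.43 within treatments), and SLC1A1 and SLC1A4 had an r of -0.57 (-0.42 within treatments). SLC1A2 and SLC1A4 had an r of -0.50, but -0.18 within treatments. SLC1A4 and SLC1A5, the neutral carriers, had an r of 0.42 (0.34 within treatments). These values are descriptions over libraries that share treatments and scaling. The genes most like SLC1A4 over the 24 libraries were TINAG (r = 0.82), DUOXA2, SELENBP1, CDK5RAP2 and SYTL1 (r = 0.80), and those most opposed were TMEM52 (r = -0.85), FKBP5 (r = -0.85), a co-chaperone of steroid receptors, and CDC37L1 (r = -0.84). The genes most like SLC1A2 were JAK1 (r = 0.83), a kinase of cytokine receptors, POGLUT3, RBM18, STAU2 and RNF128 (r = 0.82), and those most opposed were HMGA1 (r = -0.82), DERL1 and CD320 (r = -0.81).

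Genes that handle the same amino acids were taken from 9 lists and compared in Sustanon against control, where 7 of the 77 tested genes were called (5.07% of all genes). Of 9 tested genes of glutamine and glutamate metabolism 0 were called by edgeR or DESeq2, with a median log2 fold change of -0.03 (all genes -0.01). Of these 9 genes 2 had an unadjusted p under 0.05, against 19.6% of all genes. GLUL, the glutamine synthetase of the cells around the central vein, had 0.17 (adjusted p = 0.825), and GLS2, the liver glutaminase, -0.27 (adjusted p = 0.507). Of 12 tested neutral amino acid carriers of other families 0 were called by edgeR, with a median of -0.21, and 1 by DESeq2, which tested 15. Of the 12 carriers 4 had an unadjusted p under 0.05 (19.6% of all genes). SLC38A2, a sodium-coupled carrier of small neutral amino acids, had 0.26 (adjusted p = 0.703). Of 8 tested cationic, cystine and acidic carriers 1 was called, SLC3A1, the partner subunit of a cystine carrier, which fell from 8.59 ± 3.93 CPM (SD, n = 8) to 2.89 ± 2.10, a log2 fold change of -1.58 (adjusted p = 0.0219). Of 7 tested genes of serine and glycine metabolism 1 was called, PSPH, the last enzyme of serine synthesis, which rose from 1.34 ± 0.604 to 3.75 ± 1.87 CPM, a log2 fold change of 1.46 (adjusted p = 0.0289).

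CHAC1, an enzyme that degrades glutathione, stood on both the glutathione list (1 of 6 tested genes called) and the list of ATF4 targets of the amino acid response (1 of 23 called). It had a median of 2.5 counts in controls (0 to 28), 143 with Sustanon (14 to 352) and 9 with Myodin (0 to 815), and its log2 fold change in Sustanon against control was 4.76 (SE 1.24; edgeR adjusted p = 0.0264), and between 4.43 and 5.99 when single pigs were left out. Myodin against control gave a fitted value of 4.54 for CHAC1 (edgeR adjusted p = 0.35), which was 2.5 without boar 23, a pig with 815 counts. The other 22 tested ATF4 targets were not called, among them ASNS, the asparagine synthetase, at -0.12 and SLC7A11, the cystine-glutamate exchanger, at 0.12, and the median of the list was -0.06. Of 7 tested genes of the hepatocytes near the portal vein 1 was called, ARG1, the last enzyme of the urea cycle, which fell by 0.85 on the log2 scale (adjusted p = 0.0188), and the median of the list was -0.12. Of 9 tested genes of the hepatocytes around the central vein 1 was called, AHR, a receptor for aromatic compounds, at 1.42 (adjusted p = 0.0114). Of 9 tested partners and regulators of the SLC1A proteins, SLC9A3R2 rose (0.52) and PDZD11 fell (-0.35), both being scaffolds with PDZ domains. The call of PDZD11 was lost with another normalization (adjusted p = 0.0539), without the filter (0.0563), with limma (0.0876) and in sows and castrated boars only (0.0957).

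**Figure D4:**
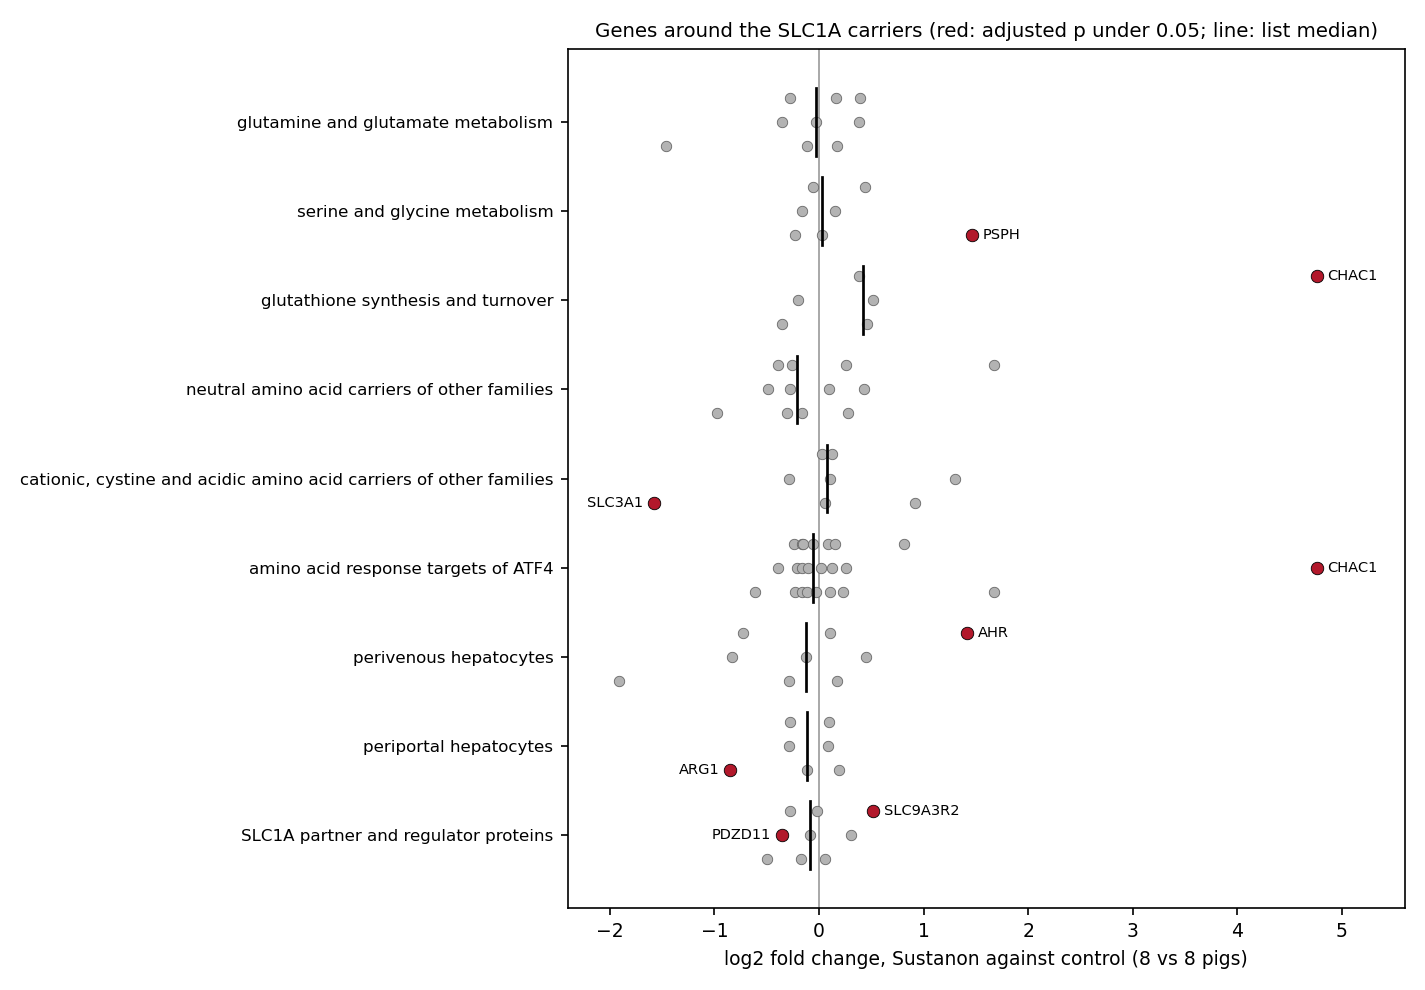
Log2 fold change in Sustanon against control (8 against 8 pigs) for the tested genes of 9 lists around the SLC1A carriers, with 1 point per gene; red points are named and have an edgeR adjusted p under 0.05, and vertical lines are list medians. The red points are scattered over the lists, with CHAC1 (on 2 lists) farthest to the right at 4.76 and SLC3A1 the lowest red point at -1.58.

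The calls of these lists were lost without the 3 control libraries that go against their labels. In that edgeR fit 0 of all genes were called, so the loss is not particular to these 7 genes. Their adjusted p lay between 0.117 (AHR) and 0.240 (PSPH). Their fitted values kept their direction, for example 1.33 for AHR, 4.50 for CHAC1 and -1.43 for SLC3A1. When each pig was left out in turn, AHR and ARG1 were called in all 24 fits, SLC9A3R2 in 23, SLC3A1 in 21, CHAC1 in 19, PSPH in 16 and PDZD11 in 7. In Myodin against control, 0 of the 77 genes were called by edgeR or DESeq2, and 8 had an unadjusted p under 0.05 (7.21% of all genes). In Sustanon against Myodin 0 were called by edgeR, with 15 at an unadjusted p under 0.05 (18.1% of all genes), whereas DESeq2 called 1 neutral carrier and 1 gene of the hepatocytes around the central vein. Among pigs without testes alone, the split in which SLC1A4 differed most between these steroids, 5 of 78 tested genes were called in Sustanon against Myodin (2.43% of all genes). GCLC (-1.1), the enzyme of the first step of glutathione synthesis, SLC7A8 (-1.36), a carrier of neutral amino acids, and ATF5 (-0.46), a transcription factor of the stress response, were lower. AHR (1.21) and CHAC1 (3.89) were higher. All 5 were called by DESeq2, and GCLC and AHR were called in all 24 fits that left out a pig, SLC7A8 in 20, ATF5 in 16 and CHAC1 in 6, with CHAC1 between 3.15 and 5.51. Without the 3 control libraries ATF5 (-0.46, adjusted p = 0.0517) and CHAC1 (3.88, adjusted p = 0.0686) were no longer called, with the same fitted values.

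In uncastrated against castrated boars 3 of 78 list genes were called (1.92% of all genes). GPT2, an enzyme that passes amino groups between glutamate and alanine, was lower (-2.36) and was called in all 24 fits that left out a pig. PDZK1, a further PDZ scaffold, was lower (-0.45), but was called in 8 of these fits and neither with limma (adjusted p = 0.159) nor without the filter (0.058). AHR was higher (0.83) and was called in 15 of these fits, and it was not called without the 3 control libraries (adjusted p = 0.0517).

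Markers of other liver cells were examined beside these results. In Sustanon against control 0 of the markers of hepatocytes, bile duct cells, leukocytes and Kupffer cells, stellate cells, endothelium and red blood cells were called by edgeR or DESeq2. By edgeR 5.07% of all genes were called. Over all marker lists 1 of 40 tested genes had an unadjusted p under 0.05, against 19.6% of all genes. In Sustanon against Myodin, where SLC1A4 was lower, 3 of 12 leukocyte and Kupffer cell markers were also lower, C1QA (-0.62), C1QC (-0.59) and NKG7 (-0.82), against 0.411% of all genes. These calls held in 16, 13 and 14 of the 24 fits that left out a pig, and without the 3 control libraries only C1QA was called. With limma C1QC (adjusted p = 0.0585) and NKG7 (0.0704) were not called, nor was NKG7 in sows and castrated boars only (0.0542). In an edgeR fit of those pigs only, C1QA (adjusted p = 0.0451) and C1QC (0.0417) were still called lower. In the fit of 6 groups of treatment by testes, 0 of the 12 markers were called by edgeR among pigs without testes (2.43% of all genes). There 5 of the 12 had an unadjusted p under 0.05 (19.4% of all genes). Over all pigs DESeq2 called 4 of these markers lower and 3 of 7 hepatocyte markers higher, among 276 genes it called in all. The summed level of the 12 markers ranged from 1426 to 1875 CPM in controls, 1250 to 1783 with Sustanon and 1627 to 2600 with Myodin. In Myodin against control 0 of these 12 markers were called by edgeR or DESeq2, 10 had a positive fitted value and 5 had an unadjusted p under 0.05, against 7.21% of all genes (0 of 12 in Sustanon against control). In uncastrated boars alone, where SLC1A4 was -0.92 with Myodin, 7 of the 12 and all 4 tested red blood cell markers had an unadjusted p under 0.05 in Myodin against control, against 9.1% of all genes, and 0 were called by edgeR. The medians were 0.62 for the leukocyte and Kupffer cell markers and -1.39 for the red blood cell markers. The part of these cells in the SLC1A4 results was not tested.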

How the data were processed

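Liver RNAseq of 24 pigs was analysed. Per the labels, the libraries were made with a stranded mRNA kit, and the submitters' processing notes name FastQC, STAR 2.5, DESeq2 and the Sscrofa11.1 build; the counting tool is not given in the sources used here. The authors deposited counts per gene without normalization, and the same libraries as log2(TPM + 1). Symbols came from the tables, and 359 of the 3779 rows without a symbol were named from a reference table, which also gave the coordinates.

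The test on counts was edgeR 4.0.16 under R 4.3.3 (low counts removed by filterByExpr, TMM scaling, two-sided quasi-likelihood test, Benjamini-Hochberg adjustment over all tested genes, threshold 0.05). Fits used 3 treatments (8279 genes), treatment plus sex class (8332) or 6 groups of treatment by testes (8754). The SE is the absolute log2 fold change over the square root of F. CPM used TMM, and log2 CPM a prior count of 2. TPM were the deposited log2 values converted back. Comparisons with one treatment or the controls in common share those libraries. Alternatives used DESeq2 1.42.0 and limma 3.58.1, and the tests were tried on simulated data. Members and lists were chosen with earlier results of these data known, and some list genes are not reported here. Named genes were all members, at most 4 called genes a list, comparison and direction, the list genes needed to say what a list holds, and the 5 highest and 3 lowest correlated genes. Strand use in counting is not stated, so reads of overlapping genes may be shared. The header code of Sustanon sow 6 is that of castrated boars, but its EIF1AY count was 0, as its label says.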

Additional observations from a re-analysis of the deposited data

Results flagged for a closer look

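SLC1A4 in control castrated boar 14 stood apart from the other controls, with a log2 CPM of 4.65 (25.0 CPM), and its gap to the next control was 0.533 of the range of the 8 controls. Of 12 groups examined, 1 was marked in this way, and chance marks about 1 in 20. Without this pig the log2 fold change of SLC1A4 in Sustanon against control was -1.01.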

How the results depend on the processing

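Counts of genes called moved most with the settings. DESeq2 called 637 genes in Sustanon against control, 1 in Myodin against control, 276 in Sustanon against Myodin, 370 in uncastrated against castrated boars, 22 in castrated boars against sows, and 36 and 92 for the Sustanon and Myodin effects with testes minus without. Without the 3 control libraries the counts were 0 (Sustanon against control), 29 (Sustanon against Myodin), 14 (castrated boars against sows), and 2 and 3 for these differences by testes. A fold threshold gave 129 in Sustanon against control and 17 in Sustanon against Myodin. In the latter, no filter gave 36, sex class as covariate 390, and sows and castrated boars only 339 (8 in Myodin against control). With limma, 7 and 13 genes differed by testes for Sustanon and Myodin. Leaving out single pigs gave 198 to 613 (Sustanon against control), 0 to 541 (Sustanon against Myodin), 84 to 306 (uncastrated against castrated boars), 0 to 6 and 2 to 192 (Sustanon and Myodin by testes). The cause was not tested.

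Among members, some signs turned, none of them of a called difference. Without the 3 libraries SLC1A5 was 0.12 (Myodin against control), 0.0011 (uncastrated against castrated boars) -0.11 (Sustanon by testes) and 0.17 (controls by testes), SLC1A2 was 0.035 (castrated boars against sows) and SLC1A1 0.038 (Sustanon by testes). SLC1A5 was 0.0497 in sows and castrated boars only (Myodin against control) and 0.016 with limma (uncastrated against castrated boars). Leaving out single pigs, SLC1A5 ranged from -0.10 to 0.11 (Myodin against control), -0.10 to 0.049 (uncastrated against castrated boars), -0.17 to 0.59 and -0.59 to 0.16 (Sustanon and Myodin by testes). SLC1A2 ranged from -0.52 to 0.58 (uncastrated against castrated boars), -0.37 to 0.14 (castrated boars against sows) and -0.081 to 0.45 (Myodin without testes). SLC1A1 ranged from -0.061 to 0.36 (Myodin without testes) and -0.051 to 0.78 (Myodin by testes), and SLC1A4 from -0.37 to 0.18 (Sustanon by testes). On the log2(TPM + 1) scale, which understates changes of low genes, SLC1A2 in Sustanon against control was 1.23. The comparisons within pigs with or without testes were tried under these settings after seeing the data. No paired analysis was possible because each pig number occurs in 1 group only. SLC1A2 had as few as 11 counts in a library, which limits its precision.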
